A study of Mus musculus with 10 samples.

Results

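The genes described here are 10 genes of the Notch pathway, taken by their symbols from a table of 54532 genes measured in whole lungs of C57/BL6 mouse pups. They are the receptors Notch1, Notch2, Notch3 and Notch4, the ligands Jag1, Jag2 and Dll4, and the target genes Hey1, Heyl and Hes1. Pups in the IncPBF group had a fistula punctured between the abdominal aorta and the inferior vena cava at P7, which sends more blood through the lung. Pups in the sham group had the same operation without the puncture. Lungs were collected at P14 from 5 pups per group and profiled by bulk RNA-sequencing. All pups were wild type. The methods name pups of either sex, and the labels give neither the sex of a pup nor a litter, operation day or sequencing batch. The column numbers 1 to 5 name the lungs here. The labels do not say which columns of the 2 groups belong together.

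Notch receptors are cleaved after a ligand on a neighboring cell binds them, and the freed intracellular part enters the nucleus, joins the DNA-binding protein RBPJ and turns on genes such as those of the HES and HEY repressor families. In the lung the pathway takes part in the growth of blood vessels, in the coverage of vessels by pericytes and smooth muscle cells, and in the choice between airway cell types. NOTCH1 and NOTCH4 act in endothelial cells, NOTCH3 in pericytes and smooth muscle cells, and NOTCH2 in several mesenchymal and epithelial cells. JAG1 and JAG2 are ligands of the Serrate type, and DLL4 is a ligand of the Delta type made by endothelial cells.

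Values are FPKM (gene fragments divided by the gene length in kilobases and by a divisor that scales each library), so levels of different genes can be compared. Fragments on genes ran from 16103423 to 20318525 per IncPBF lung and from 18171494 to 19400575 per sham lung. The members had between 886 and 5492 fragments in every lung. Groups were compared with limma on log2(FPKM + 0.1) over the 15388 genes with a mean of at least 0.5 FPKM, and a gene was called at a Benjamini-Hochberg adjusted p under 0.05 over all of them. Fold changes are differences of log2(FPKM + 0.1), IncPBF minus sham. Of all genes tested, 32.3% were called, 16.2% lower and 16.1% higher in the IncPBF group.

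The lungs also differed in sex-linked RNA. IncPBF lungs 2 to 5 had 52.4 to 66.5 FPKM of Xist, an RNA that silences one X chromosome in female cells, whereas IncPBF lung 1 had 0.0144 FPKM and no sham lung exceeded 0.0770 FPKM. Ddx3y, a gene of the Y chromosome, showed the reverse, with 18.6 FPKM in IncPBF lung 1, 21.8 to 24.6 FPKM over the sham group and no more than 0.00926 FPKM in IncPBF lungs 2 to 5. In these 4 lungs the shunt and the sex-linked class cannot be told apart, so values of IncPBF lung 1 are given beside the main results.

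All 4 receptor genes were downregulated in the IncPBF group. Their median log2 fold change was -0.48, against 0.01 over all genes tested. Notch4 and Notch2 were lower in every IncPBF lung than in any sham lung, and Notch1 and Notch3 were lower with overlapping groups. Of the other members, Hey1 was downregulated, and none of the 3 ligands and neither Heyl nor Hes1 passed the test. In total 5 of 10 members were called, all lower, where 16.2% of all genes tested were called lower. Among tested genes longer than 8000 bases, as the 4 receptor genes are, 28.0% were called lower. The median log2 fold change of the 10 members was -0.30. All 10 members had a negative log2 fold change, although that of Hes1 turned positive with lungs set to equal totals and without sham lung 3.

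Of the 10 genes, 7 have an entry in the table of promoters used here, and the targets Hey1, Heyl and Hes1 have none. The 2 receptors whose groups did not overlap were called lower, and Dll4, the ligand with the smallest fold change, was not. The promoters of these receptors are therefore shown beside that of Dll4. They run 5′ to 3′, from 250 bases before to 50 bases after the RefSeq start on GRCm38.p6, at chr17:34564045-34564344 on the plus strand for Notch4, chr3:98013288-98013587 on the plus strand for Notch2 and chr2:119325534-119325833 on the plus strand for Dll4. Capitals mark matches, on either strand, to the GC box GGGCGG and the AP-1 motif TGACTCA.
Notch4: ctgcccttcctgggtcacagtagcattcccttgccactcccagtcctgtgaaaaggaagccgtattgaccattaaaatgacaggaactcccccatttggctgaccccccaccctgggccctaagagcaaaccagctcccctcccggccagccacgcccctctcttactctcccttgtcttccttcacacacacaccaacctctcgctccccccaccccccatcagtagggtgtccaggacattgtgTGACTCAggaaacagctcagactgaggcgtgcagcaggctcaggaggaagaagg
Notch2: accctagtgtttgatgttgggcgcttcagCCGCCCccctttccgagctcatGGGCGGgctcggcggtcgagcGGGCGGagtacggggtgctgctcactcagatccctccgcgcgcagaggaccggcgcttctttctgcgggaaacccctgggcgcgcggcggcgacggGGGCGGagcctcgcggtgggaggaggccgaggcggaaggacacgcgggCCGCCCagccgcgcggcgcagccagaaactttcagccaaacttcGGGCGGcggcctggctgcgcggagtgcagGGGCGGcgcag
Dll4: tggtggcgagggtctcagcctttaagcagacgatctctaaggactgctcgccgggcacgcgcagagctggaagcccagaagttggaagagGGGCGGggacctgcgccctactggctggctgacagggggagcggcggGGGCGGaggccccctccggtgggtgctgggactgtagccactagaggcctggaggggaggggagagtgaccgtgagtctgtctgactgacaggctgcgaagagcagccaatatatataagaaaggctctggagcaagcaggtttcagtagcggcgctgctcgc

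The Notch4 window held 1 AP-1 match and no GC box, the Notch2 window 7 GC boxes and the Dll4 window 2. Of 32851 mouse promoters of the same length, 35.7% held a GC box and 5.20% the AP-1 motif. The other windows held 5 GC boxes for Notch1, 4 for Notch3, 5 for Jag2 and 0 for Jag1, where matches at Jag2 overlapped in part. The letters TGGGAA, bound by RBPJ, were in none of the 7 windows and in 25.6% of all promoters, CACGTG, the E box bound by HEY and HES proteins, was in none and in 7.15%, and CCGGAA, the ETS motif, was in none and in 14.9%. These motifs were chosen after the sequences had been seen, and a window without a match says only that those letters are not in it. All windows searched are of receptors and ligands, and none is of the targets Hey1, Heyl and Hes1.

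Notch4 (ENSMUSG00000015468, GRCm38 chr17:34564268-34588503, plus strand), the endothelial receptor, was 18.7, 18.1, 23.6, 20.1 and 19.0 FPKM in IncPBF lungs 1 to 5, and 31.5, 30.2, 27.0, 24.5 and 35.8 FPKM in sham lungs 1 to 5. Every IncPBF lung was below every sham lung, although IncPBF lung 3 came close to sham lung 4. The means were 19.9 ± 2.20 and 29.8 ± 4.33 FPKM (SD, n = 5), a log2 fold change of -0.57 (standard error 0.10, limma adjusted p = 0.00194). An exact permutation test over all assignments of the lungs, two-sided as are all such tests here, gave p = 0.00794, the smallest it can give.

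Notch2 (ENSMUSG00000027878, chr3:98013527-98150361, plus strand) was 10.5, 9.43, 10.4, 9.09 and 11.5 FPKM in IncPBF lungs 1 to 5. In sham lungs 1 to 5 it was 16.5, 13.3, 13.1, 12.2 and 16.4 FPKM. The groups did not overlap, and sham lungs 1 and 5 were highest. Notch2 fell by 0.48 on the log2 scale (standard error 0.10, limma adjusted p = 0.00373, exact permutation p = 0.00794). Its mean was 28.6% lower in the IncPBF group.

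Notch1 (ENSMUSG00000026923, chr2:26457903-26516663, minus strand) was 9.34, 8.77, 11.2, 8.60 and 9.47 FPKM in IncPBF lungs 1 to 5 and 17.2, 13.7, 9.97, 11.4 and 15.7 FPKM in sham lungs 1 to 5. Here 4 of 5 IncPBF lungs lay below all sham lungs, with IncPBF lung 3 above sham lung 3. The log2 fold change was -0.49 (standard error 0.14, limma adjusted p = 0.0200). The sham lungs spread by 2.98 FPKM (SD), against 1.05 FPKM in the IncPBF lungs.

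Notch3 (ENSMUSG00000038146, chr17:32120820-32166880, minus strand), the receptor of pericytes and smooth muscle cells, was 24.7, 23.9, 27.4, 21.7 and 24.6 FPKM in IncPBF lungs 1 to 5. In sham lungs 1 to 5 it was 38.0, 33.6, 26.4, 25.0 and 39.2 FPKM. IncPBF lung 3 reached into the sham range, and sham lungs 3 and 4 lay near the IncPBF lungs. The log2 fold change was -0.39 (standard error 0.13, limma adjusted p = 0.0364). This call depended on single lungs. The adjusted p was at least 0.05 without IncPBF lung 1, 2, 4 or 5 or sham lung 1, 2 or 5, at most 0.0858, and was 0.0178 without sham lung 3 and 0.0103 without sham lung 4.

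**Figure D1:**
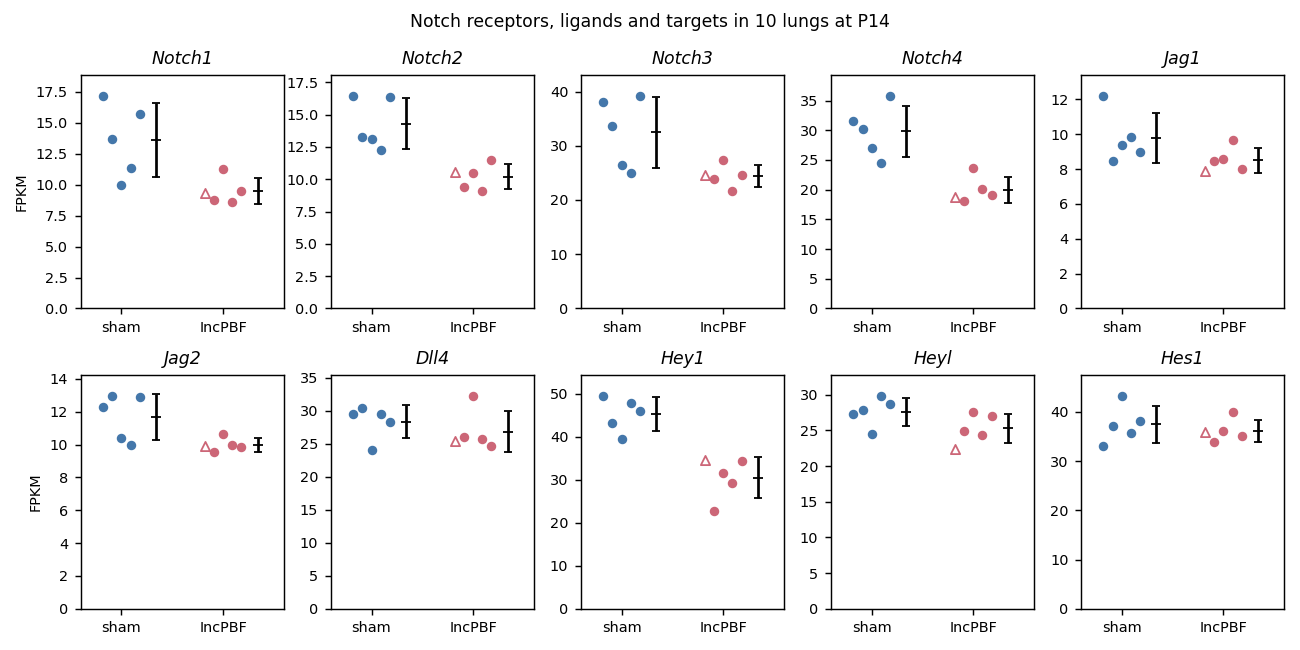
FPKM of each member in the 5 sham lungs (blue) and the 5 IncPBF lungs (red), with the mean and SD as black marks, and IncPBF lung 1, which lacks Xist, as an open triangle. Notch2, Notch4 and Hey1 are lower in every IncPBF lung than in any sham lung, and Hes1 and Dll4 are spread over one range in both groups.

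Summed over the 4 receptors, FPKM ran from 59.5 to 72.7 in the IncPBF lungs and from 73.1 to 107 in the sham lungs. Notch3 took 38.2 ± 1.23% of the sum in the IncPBF lungs and 35.8 ± 1.36% in the sham lungs (SD, n = 5), and its share in 4 of 5 IncPBF lungs was above that in every sham lung. Notch4 took 31.1 ± 1.94% and 33.2 ± 1.71%, Notch1 took 14.8 ± 0.396% and 15.0 ± 1.33%, and Notch2 took 16.0 ± 1.33% and 15.9 ± 1.03%. Differences in these shares were not tested. The correlation of deviations from the group means over the 10 lungs ran from 0.61 (Notch2 and Notch4) to 0.93 (Notch1 and Notch3) over the receptor pairs. The ligand Jag2 had values in this range with Notch3 (0.89), Notch4 (0.87) and Notch1 (0.81), and a value below it with Notch2 (0.59). These are descriptions, since all lungs share scaling. Sham lungs 1 and 5 had the highest levels of all 4 receptors.

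Hey1 (ENSMUSG00000040289, chr3:8663359-8667256, minus strand), a repressor induced by Notch in endothelial cells, was 34.6, 22.8, 31.5, 29.3 and 34.2 FPKM in IncPBF lungs 1 to 5 and 49.4, 43.2, 39.5, 47.8 and 46.1 FPKM in sham lungs 1 to 5. All IncPBF lungs were below all sham lungs. It fell from 45.2 ± 3.94 to 30.5 ± 4.82 FPKM (SD, n = 5), a log2 fold change of -0.58 (standard error 0.11, limma adjusted p = 0.00259), similar in size to that of Notch4. In the IncPBF group its lowest value was in lung 2.

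The other 2 targets were not called. Heyl (ENSMUSG00000032744, chr4:123233556-123249875, plus strand), made in vascular smooth muscle cells and pericytes, was 22.5, 24.9, 27.6, 24.4 and 27.0 FPKM in IncPBF lungs 1 to 5 and 27.3, 27.9, 24.5, 29.8 and 28.7 FPKM in sham lungs 1 to 5. The groups overlapped, and the log2 fold change was -0.13 (95% confidence interval -0.28 to 0.02, limma adjusted p = 0.181). Hes1 (ENSMUSG00000022528, chr16:30064384-30067796, plus strand), a repressor that many tissues use, was 35.8, 33.9, 36.1, 39.9 and 35.0 FPKM in IncPBF lungs 1 to 5 and 33.2, 37.2, 43.2, 35.6 and 38.1 FPKM in sham lungs 1 to 5. The sham range held all IncPBF lungs, with a log2 fold change of -0.05 (95% confidence interval -0.21 to 0.11, limma adjusted p = 0.651). Differences in fold change between targets were not tested.

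The ligands were not called. Jag2 (ENSMUSG00000002799, chr12:112907819-112929776, minus strand) was 9.91, 9.52, 10.7, 9.96 and 9.85 FPKM in IncPBF lungs 1 to 5 and 12.3, 13.0, 10.4, 9.97 and 12.9 FPKM in sham lungs 1 to 5. Its log2 fold change was -0.22 (95% confidence interval -0.40 to -0.04), with a limma adjusted p of 0.0548. Without sham lung 3 this p was 0.0303 and without sham lung 4 it was 0.0156, and limma-voom on the recovered fragments gave 0.0361. Jag1 (ENSMUSG00000027276, chr2:137081456-137116644, minus strand) was 7.86, 8.46, 8.56, 9.68 and 8.02 FPKM in IncPBF lungs 1 to 5 and 12.2, 8.44, 9.41, 9.83 and 9.00 FPKM in sham lungs 1 to 5. Sham lung 1 stood highest, the groups overlapped and the log2 fold change was -0.19 (95% confidence interval -0.40 to 0.02, limma adjusted p = 0.154). Dll4 (ENSMUSG00000027314, chr2:119325784-119335962, plus strand) was 25.4, 26.1, 32.2, 25.7 and 24.7 FPKM in IncPBF lungs 1 to 5 and 29.4, 30.5, 24.1, 29.5 and 28.2 FPKM in sham lungs 1 to 5. Its log2 fold change was -0.08 (95% confidence interval -0.27 to 0.10, limma adjusted p = 0.495). At Dll4 the opposite-strand gene Gm14207 reached no more than 55 fragments in a lung, and whether the counting used strand is not given in the sources used here.

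In the sham lungs Hey1 had the highest mean level, followed by Hes1, Notch3, Notch4, Dll4, Heyl, Notch2, Notch1, Jag2 and Jag1. Neighbors in this order overlapped in range except for Heyl and Notch2. In the IncPBF lungs the order was Hes1, Hey1, Dll4, Heyl, Notch3, Notch4, Notch2, Jag2, Notch1 and Jag1. By mean, Notch3 and Notch4 stood after Dll4 and Heyl in the IncPBF lungs and before them in the sham lungs. Over the IncPBF lungs the ranges of Notch3 (21.7 to 27.4 FPKM), Heyl (22.5 to 27.6 FPKM) and Dll4 (24.7 to 32.2 FPKM) overlapped. Notch4 (18.1 to 23.6 FPKM) overlapped there with Heyl and not with Dll4. The change of order was not tested.

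IncPBF lung 1, which shares with the sham lungs the absence of Xist, was below all 5 sham lungs for 8 of 10 members, all but Dll4 and Hes1. Over all genes tested 25.4% were below all sham lungs in this lung. Across the groups, the count of members with every IncPBF lung below every sham lung was 3 of 10, where 11.2% of all genes tested had that pattern. With the Xist class (above or below 1 FPKM) held constant in the fit, no member was called. Notch4 then had a log2 fold change of -0.66 (limma adjusted p = 0.0757), Notch2 of -0.43 (0.200), Notch1 of -0.51 (0.284), Hey1 of -0.38 (0.277) and Notch3 of -0.37 (0.393), and all kept their sign. Over all genes tested, 736 were then called, against 4970 in the main comparison. The 4 IncPBF lungs with Xist then inform only the spread, and the group term rests on IncPBF lung 1.

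**Figure D2:**
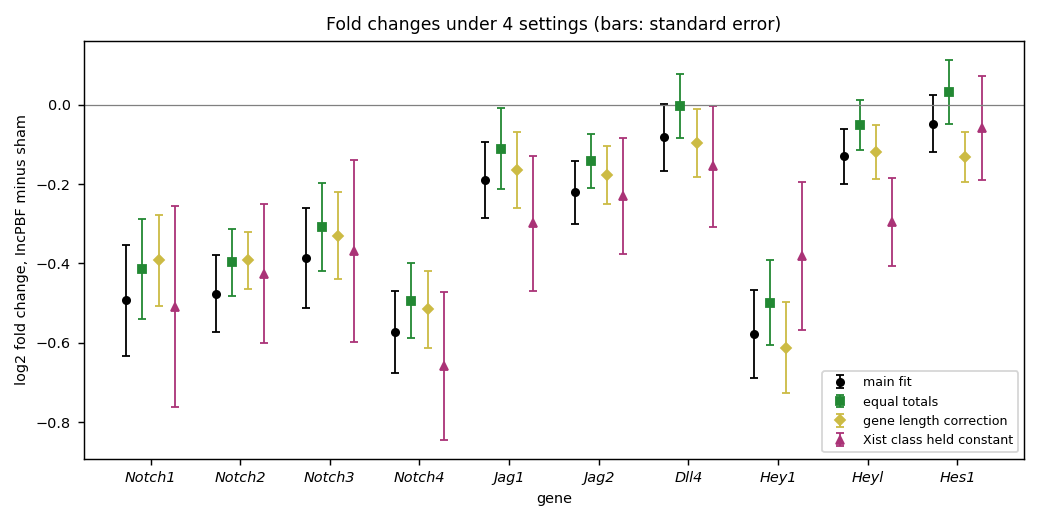
Log2 fold changes of the 10 members, IncPBF minus sham, in the main comparison, with lungs scaled to equal totals, after a gene length correction, and with the Xist class held constant, with standard errors as bars. The 4 receptors and Hey1 lie below 0 under each of these 4 settings, and Hes1 lies on both sides of 0.

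Several cell type marker lists were lower in the IncPBF lungs. Called lower were 7 of 8 genes of alveolar type 1 cells (median log2 fold change -0.43), 6 of 8 of alveolar type 2 cells (-0.55), 4 of 4 tested of mesothelium (-1.08) and 4 of 5 of erythroid cells (-1.50). Of 12 endothelial genes 8 were called lower (-0.27), among them Pecam1, Cdh5 and Tek. Cldn5 (0.09) and Emcn (0.01) of this list lay above 0 and were not called. The list summed to 1332 to 1466 FPKM per IncPBF lung and 1462 to 1822 FPKM per sham lung. In bulk tissue, fewer cells of a type and less RNA per cell cannot be told apart. Relative to the mean log2 level of the endothelial markers, the groups overlapped for every member, so none was lower or higher in every IncPBF lung. Of all genes tested, 3.24% were lower in every IncPBF lung on this scale, and the share that was higher is not given here. The differences were -0.31 for Notch4 (exact permutation p = 0.0159), -0.31 for Hey1 (exact permutation p = 0.0476), -0.23 for Notch1 (exact permutation p = 0.103), -0.21 for Notch2 (exact permutation p = 0.0635) and -0.12 for Notch3 (exact permutation p = 0.325). Dll4 was 0.18 and Hes1 0.22 on the other side (exact permutation p = 0.0556 and 0.0635). These p-values are not adjusted over the 10 members.

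Of 12 pericyte markers 3 were called higher and 1 lower, and they summed to 626 to 685 FPKM per IncPBF lung and 551 to 662 FPKM per sham lung. Of 11 smooth muscle markers 7 were called higher, with a mean log2 difference of 0.69. Relative to the pericyte markers 7 of 10 members were lower in every IncPBF lung, all but Jag1, Dll4 and Hes1, where 16.8% of all genes tested were. Notch3, which pericytes make, was -0.46 on this scale and Heyl -0.21 (exact permutation p = 0.00794 for both). Of 7 arterial markers tested 2 were called, Gja5 and Fbln5, both higher. The part of these cell types in the members' values was not tested. Every gene of the endothelial, pericyte, smooth muscle and arterial lists was above 0 in all lungs.

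**Figure D3:**
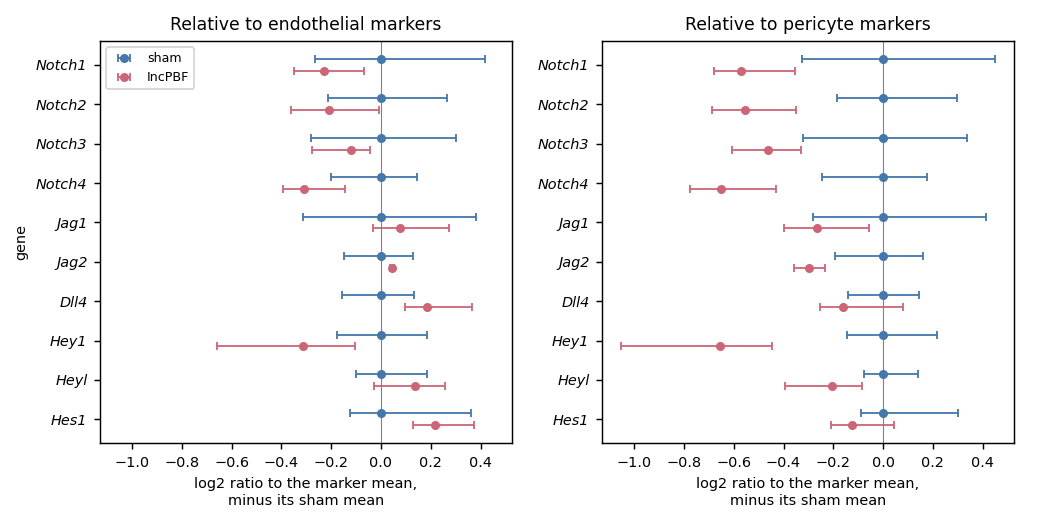
Mean (points) and range (bars) over 5 lungs of each member's log2 ratio to the endothelial markers (left) and to the pericyte markers (right), set to 0 at the sham mean. The sham and IncPBF ranges overlap for all 10 members on the left, and are apart for 7 of them on the right.

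The members' gene models differ in length, from 2037 bases for Hes1 to 14232 bases for Notch1, and the 4 receptor genes are the longest of them, with 8044 to 14232 bases. Over all genes tested, those longer than 8000 bases (2238) had a median log2 fold change of -0.10, with 28.0% called lower and 11.2% higher, and those up to 1000 bases a median of 0.15 with 3.76% called lower. A correction for gene length was chosen after the data had been seen. With it Notch1 was at -0.39, Notch2 at -0.39, Notch3 at -0.33, Notch4 at -0.52 and Hey1 at -0.61. These 5 members were still called, as were 4823 of all 15373 genes in that fit.

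**Figure D4:**
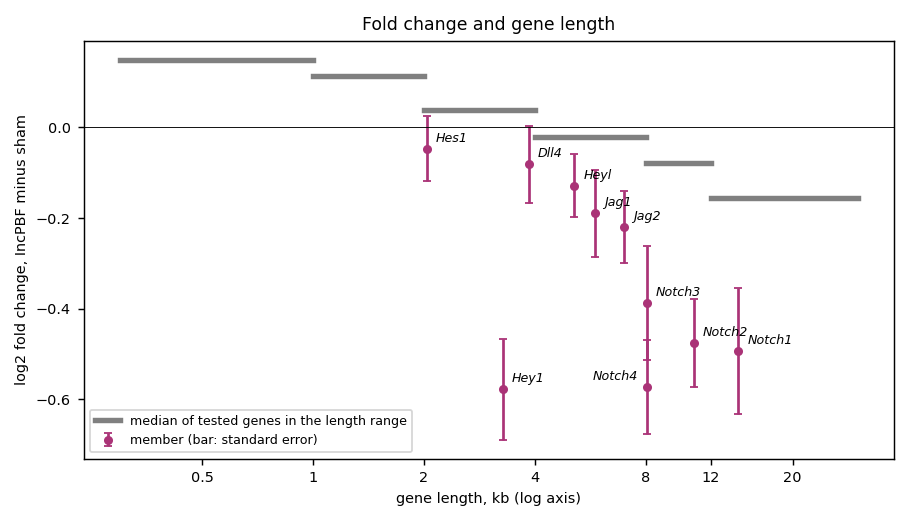
Log2 fold change of each member with its standard error against gene length in kilobases on a log axis, over the median of tested genes in each length range (grey). The medians go down with length from 0.15 to -0.16, and the 4 receptors and Hey1 lie below the median of their range.

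A list of 88 Notch pathway genes, including the members, was set beside them. Of 81 tested, 20 were called lower and 12 higher, and without the members 15 were called lower and 12 higher of 71, with a median log2 fold change of -0.06. Over all genes tested, 16.2% were called lower and 16.1% higher.

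Among the HES and HEY repressors, Hey2 was called lower besides Hey1. Hey2 was 1.17, 1.46, 1.07, 1.46 and 1.38 FPKM in IncPBF lungs 1 to 5 and 2.10, 2.18, 1.70, 1.82 and 2.08 FPKM in sham lungs 1 to 5, with no overlap and a log2 fold change of -0.56 (limma adjusted p = 0.00428). Of 7 other genes induced by Notch, 4 were called higher. Gja5, a connexin of arterial endothelium, was 16.1, 13.3, 15.4, 17.1 and 16.6 FPKM in IncPBF lungs 1 to 5 and 7.72, 8.12, 7.91, 12.4 and 6.55 FPKM in sham lungs 1 to 5, a log2 fold change of 0.90 (limma adjusted p = 0.000956). Nrarp, a feedback inhibitor of Notch that Notch itself induces, rose from 5.41 to 8.03 FPKM, a log2 fold change of 0.56 (limma adjusted p = 0.00469). Myc rose by 0.61 and Ccnd1, which lies outside the rule for named genes, by 0.19 on the log2 scale. Called targets of Notch thus lay on both sides of 0.

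Of the ligand-like genes, Dlk1 rose by 1.73 on the log2 scale, with a range of 0.335 to 0.451 FPKM over the sham group and of 0.795 to 3.45 FPKM over the IncPBF group, and Mfap2 by 0.38 and Egfl7 by 0.28. Neither Rbpj, the DNA-binding partner, nor the fringe genes Lfng and Mfng passed the test. In receptor cleavage, Furin (-0.29), which encodes a protease that processes the receptors, and Aph1c (-0.57) were among the genes called lower, and in the nuclear complex Ep300 (-0.39) and Kat2b (-0.31) were called lower and Kat2a (0.25) higher. Among corepressors 5 were called lower and 3 higher. Tle1, a Groucho-type corepressor of HES proteins, was 7.71, 8.22, 8.69, 8.03 and 7.87 FPKM in IncPBF lungs 1 to 5. In sham lungs 1 to 5 it was 17.2, 14.6, 14.2, 12.2 and 16.0 FPKM. Its log2 fold change was -0.86 (limma adjusted p = 4.99e-05). Tle3 rose by 0.41. Numb, which blocks Notch receptors, fell by 0.36. Dtx3l fell by 0.35, but was 6.22 FPKM in IncPBF lung 1, within the sham range of 6.00 to 6.26 FPKM, and 4.04 to 4.84 FPKM in the 4 IncPBF lungs with Xist.

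**Figure D5:**
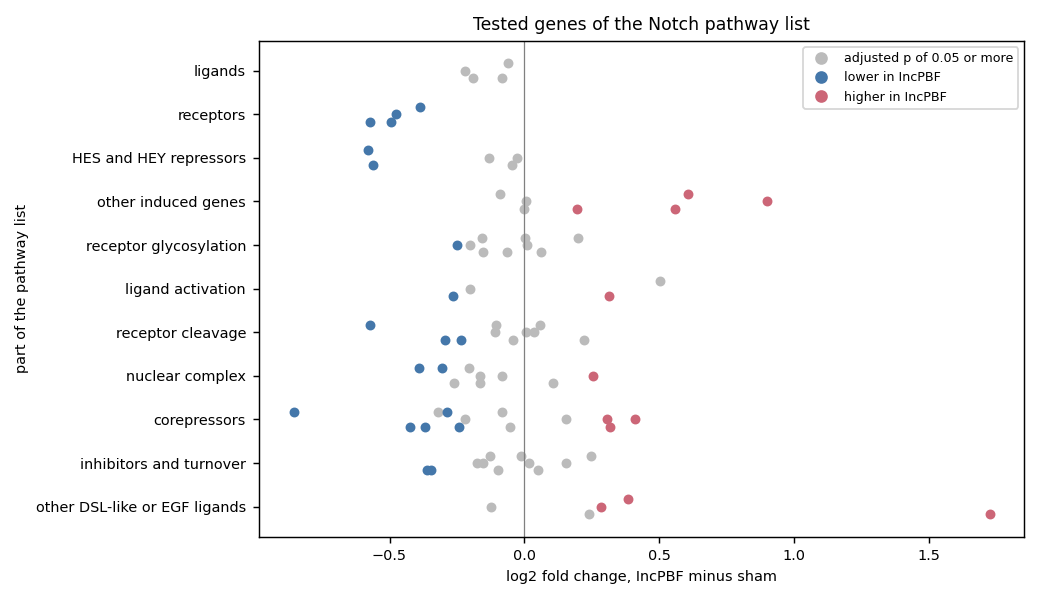
Log2 fold change of the 81 tested genes of the pathway list by role, with genes called lower in blue, called higher in red and the others in grey. All 4 receptors are blue, and among other induced genes 4 of 7 are red.

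The gene most like each member over the 10 lungs, by Pearson correlation of log2(FPKM + 0.1), was Heatr5b for Notch1 (r = 0.988), Mlxip for Notch2 (r = 0.985), Rab11fip3 for Notch3 (r = 0.985), Caskin2 for Notch4 (r = 0.988) and Itga6 for Hey1 (r = 0.970). For the ligands it was Cdc37l1 for Jag1 (r = 0.921), Nup214 for Jag2 (r = 0.969) and Trpv2 for Dll4 (r = 0.902), and for the other targets Abcf3 for Heyl (r = 0.938) and Rogdi for Hes1 (r = 0.894). With the group means removed, the value stayed at 0.982 for Notch1 and 0.976 for Notch3 and was 0.886 for Hey1. These are descriptions over 10 lungs that share libraries and scaling.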

How the data were processed

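Lungs of 5 IncPBF and 5 sham pups were analyzed. The authors deposited FPKM per gene with the gene length in bases. Their processing notes name Bowtie 0.12.2, and the text names in-house PERL cleaning of the reads. The counting tool is not given in the sources used here. RNA was isolated with a column kit in the methods and with Trizol in the labels. Compression of the puncture is given as 20 s in the methods and as 2 min in the labels of the IncPBF group. The sham labels give no such time. Multiplied by gene length, 100% of the FPKM values came out whole within 0.1 in units of a fixed amount per lung, which gave the fragments. The divisor was 1.02 to 1.07 times the IncPBF totals and 0.958 to 1.03 times the sham totals, which lowers IncPBF values against sham values. With lungs set to equal totals the log2 fold change of every member moved up. That of Notch4 went from -0.57 to -0.49 and that of Dll4 from -0.08 to -0.0022. Of 54495 genes shared with GENCODE M21, 98.3% had the same position on GRCm38.

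Log2(FPKM + 0.1) of 15388 genes was fitted with limma 3.58.1 (lmFit, eBayes with trend, R 4.3.3). The same fit was also run on simulated data, and its outcome is not given here. Single values used two-sided exact permutation. IncPBF columns are not named as their samples are titled, so each was tied to its group and not to a sample. Alternatives were the pseudocount, filter, scaling, block, trend, test, Xist terms, limma-voom, length correction (smoothed fit, span 0.5) and each lung left out. Named were all members, of each pathway list at most 3 called rises and 3 called falls, the gene most like each member, Xist and Ddx3y. A gene of the pathway lists that this rule names is not reported here. Marker genes, Gm14207, Rbpj, Lfng, Mfng and Ccnd1 were named after their values were seen. Members and lists were chosen with earlier results of these data known. Replicates are separate lungs. Confidence intervals are from limma, and sequences are from RefSeq.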

Additional observations from a re-analysis of the deposited data

Results flagged for a closer look

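Over 68 groups of 5 lungs, 3 held a lung far from the others by Dixon's criterion, and chance gives about 1 in 20 such groups. Dll4 was 32.2 FPKM in IncPBF lung 3 and 24.7 to 26.1 FPKM in the other IncPBF lungs. Gja5 was 12.4 FPKM in sham lung 4 and 6.55 to 8.12 FPKM in the other sham lungs. Neurl1b, a ubiquitin ligase of Notch ligands, was 5.51 FPKM in IncPBF lung 2 and 6.85 to 7.38 FPKM in the other IncPBF lungs.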

How the results depend on the processing

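The main comparison called 5 members and 32 genes of the pathway list. With log2 Xist as a covariate the log2 fold change was -0.64 for Notch4, -0.41 for Notch2, -0.48 for Notch1, -0.37 for Hey1 and -0.34 for Notch3. With the Xist class held constant these were -0.66, -0.43, -0.51, -0.38 and -0.37. With either Xist term the group difference rests mainly on IncPBF lung 1, so counts of called genes are not compared with the other settings. An exact permutation test of FPKM, adjusted over all genes, called 3 members and 21 list genes, and 3563 of all 15388 genes tested. With each lung left out, 4 to 6 members and 24 to 41 list genes were called. The count over all 15388 genes tested then ran from 3869 to 5234, against 4970 in the main comparison. Notch3 missed the threshold with no filter on low values (adjusted p = 0.0730), with equal totals (0.0516) and without the variance trend (0.0523). With equal totals the Hes1 log2 fold change was 0.032 in place of -0.047, and without single lungs it ran from -0.089 to 0.0056. Relative to the endothelial markers, leaving out single lungs gave 0 to 1 members whose groups did not overlap. It was Notch4, lower, without IncPBF lung 3 or sham lung 4, and Hes1, higher, without sham lung 3. Same-numbered differences (replicate block) put 2 members, Notch2 and Notch4, on one side of 0. The shares of all genes tested with these patterns, without single lungs or by same-numbered differences, are not given here. These counts of members therefore have no background to be read against. The replicate block called 5 members and 34 list genes, and 4872 of all 15388 genes tested. Deviations from the group means of same-numbered lungs correlated at r = -0.0675 to 0.0854. The labels do not say whether the numbers pair the lungs, and these correlations cannot settle it. Gene length and GC corrections, both chosen after the data were seen, left 5 members called. Of 15373 genes, 4823 were called with the length correction and 5178 with the GC and length correction. The log2 fold changes of the members other than Hes1 kept their sign under all settings of the limma and permutation tests, but relative to the endothelial markers Jag1 (0.08), Jag2 (0.05), Dll4 (0.18), Heyl (0.14) and Hes1 (0.22) were above 0. Depth limits no member. Of the pathway list, 7 genes had a mean below 0.5 FPKM and were not tested.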
